A study of Mus musculus with 8 samples.

Results

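The Hedgehog pathway genes described here are 9 genes: Hhip, Ptch1, Boc, Cdon, Gas1, Smo, Gli1, Gli2 and Gli3. They were taken by symbol from the platform's probe table, using for each gene the probe set with a single symbol and the highest mean over all 8 arrays. All 9 were found among 22180 genes, and each had 1 such probe set. Ptch1, Gas1 and Gli3 lie on chromosome 13, and the others on chromosomes 8 (Hhip), 16 (Boc), 9 (Cdon), 6 (Smo), 10 (Gli1) and 1 (Gli2). The cells were hepatic stellate cells, liver pericytes that store vitamin A and turn into matrix-producing myofibroblasts after injury. They came from BALB/c mice, an inbred strain, and were profiled on Affymetrix arrays, 2 per group. One group had been kept for 10 days on plastic, and 2 groups were taken unseeded from mice that had received carbon tetrachloride (CCl4, a hepatotoxin that causes fibrosis) for 4 weeks or 2 weeks. Quiescent cells, the comparison for all of them, came unseeded from healthy livers at 0 hours. The treatment protocol given for every sample mentions 2.5 mM valproic acid, a histone deacetylase inhibitor, after seeding. No title or treatment label does, so it is not known here whether the cultured group was exposed to it. Age, sex and any pooling of mice are not given in the sources used here, nor whether a group's arrays represent different mice or dishes. P-values therefore rest on the spread between arrays, part or all of which may be technical.

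Hedgehog ligands are lipid-modified secreted proteins. Without ligand, the receptor Patched 1 (Ptch1) holds the membrane protein Smoothened (Smo) inactive, and the GLI transcription factors are processed into repressors. With ligand, helped onto Patched by the co-receptors BOC, CDON and GAS1, Smoothened becomes active at the primary cilium and GLI proteins turn on target genes. Gli1, Ptch1 and Hhip are themselves widely used as such targets. Ptch1 and the decoy receptor Hhip limit the response, while Gli1 adds to it. In the liver the pathway is known for its part in the response of stellate cells and bile duct cells to injury.

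The sequences upstream of Hhip, Ptch1 and Gli2 are shown because Hhip and Ptch1 were the members with the largest falls against quiescent cells, and Gli2 was higher after CCl4. Each is the 250 bases before the transcription start, from RefSeq on GRCm38.p6, written 5′ to 3′ in the direction of the gene. Hhip lies at chr8:80058009-80058258, Ptch1 at chr13:63565736-63565985 and Gli2 at chr1:119053620-119053869, all on the minus strand. Capitals mark CCACCC, the central letters of the GLI consensus, and the GC box GGGCGG, each on either strand.
Hhip: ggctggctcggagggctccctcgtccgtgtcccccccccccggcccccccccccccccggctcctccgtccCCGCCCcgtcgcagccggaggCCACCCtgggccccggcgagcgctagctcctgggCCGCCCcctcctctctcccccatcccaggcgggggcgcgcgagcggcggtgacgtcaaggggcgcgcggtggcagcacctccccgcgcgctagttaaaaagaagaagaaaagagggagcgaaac
Ptch1: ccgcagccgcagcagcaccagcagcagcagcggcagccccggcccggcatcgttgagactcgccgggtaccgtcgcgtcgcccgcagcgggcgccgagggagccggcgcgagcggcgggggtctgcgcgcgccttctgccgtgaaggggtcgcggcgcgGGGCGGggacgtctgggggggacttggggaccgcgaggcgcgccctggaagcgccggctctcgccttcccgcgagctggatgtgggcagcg
Gli2: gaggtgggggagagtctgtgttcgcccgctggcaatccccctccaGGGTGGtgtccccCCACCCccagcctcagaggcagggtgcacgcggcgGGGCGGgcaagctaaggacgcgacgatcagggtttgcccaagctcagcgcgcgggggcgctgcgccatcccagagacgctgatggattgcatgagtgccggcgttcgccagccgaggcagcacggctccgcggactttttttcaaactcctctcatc
RefSeq windows were at hand for 7 of the 9 members, not for Boc or Gli1. The full GLI consensus GACCACCCA was in 0 of these 7 windows, on either strand, and in 0.225% of all 32851 windows of this length. CCACCC, which the full consensus contains, was in 4 of the 7 and in 28.1% of all windows. Hhip held it once, with its first letter 158 bases before the start, and Gli2 held it at 205 and 192 bases. These letters also occur in the CACCC boxes bound by Krüppel-like factors. GGGCGG was in 5 of the 7 and in 32.7% of all windows, and overlapped no CCACCC in the sequences shown. The GC content was 76.0% for Hhip, 78.4% for Ptch1 and 67.2% for Gli2, against a median of 52.4% over all windows. A match describes the letters only and shows no binding.

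Levels below are the deposited log2 values from RMA, a method that corrects background, makes the arrays' distributions equal and summarises probes. A difference of 1 log2 unit is a 2-fold change. Levels are given for each of the 2 arrays of a group, replicate 1 first, and changes as log2 fold change ± standard error (SE). The test was limma, a moderated linear model fitted to all 22180 genes and 8 arrays. A gene was called at a Benjamini-Hochberg adjusted p under 0.05. Array values of different genes are not on a common scale, so the members' levels are not ranked against each other. The background guide was the 95th percentile of 1390 olfactory and vomeronasal receptor genes, 4.69 log2 units. This guide and the sums over markers below do set different genes side by side, and are rough for that reason.

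The stellate identity of the samples was checked on 11 markers. Desmin (Des), an intermediate filament of stellate cells, stood between 9.67 and 10.08 log2 units on all 8 arrays. Lrat, which makes retinyl esters, stood at 7.21 and 5.74 in cultured cells and between 10.95 and 11.29 on the 6 arrays of unseeded cells. Of the 11, 4 rose and 5 fell in culture, among them Acta2 of myofibroblasts (5.69 log2 units higher) and the stellate genes Colec10 (-6.08), Rgs5 (-5.70) and Hgf (-5.18). After CCl4, 5 rose and 2 fell at 4 weeks and 4 rose and 2 fell at 2 weeks. Both falls at each time were those of Colec10 (-1.47 and -1.30) and Rgs5 (-0.60 and -0.66). Markers of other liver cells were present in the unseeded samples and differed between groups. Summed over 8 markers on the linear scale, sinusoidal endothelial transcripts reached 272 to 368 in culture, 1094 to 1518 after 4 weeks and 1858 to 2409 after 2 weeks of CCl4, and 4900 to 9743 in quiescent cells. Hepatocyte transcripts, also 8 markers, reached 279 to 341 in culture, 2019 to 2672 after 4 weeks and 5212 to 7982 after 2 weeks, and 9152 to 12901 in quiescent cells. Macrophage markers reached 902 to 1075 in culture, 694 to 698 and 2002 to 2455 after 4 and 2 weeks, and 1997 to 2563 in quiescent cells. Quiescent replicates 1 and 2 differed most of all replicate pairs, with 565 genes over 2-fold apart, against 158 in culture, 56 after 4 weeks and 117 after 2 weeks.

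**Figure D1:**
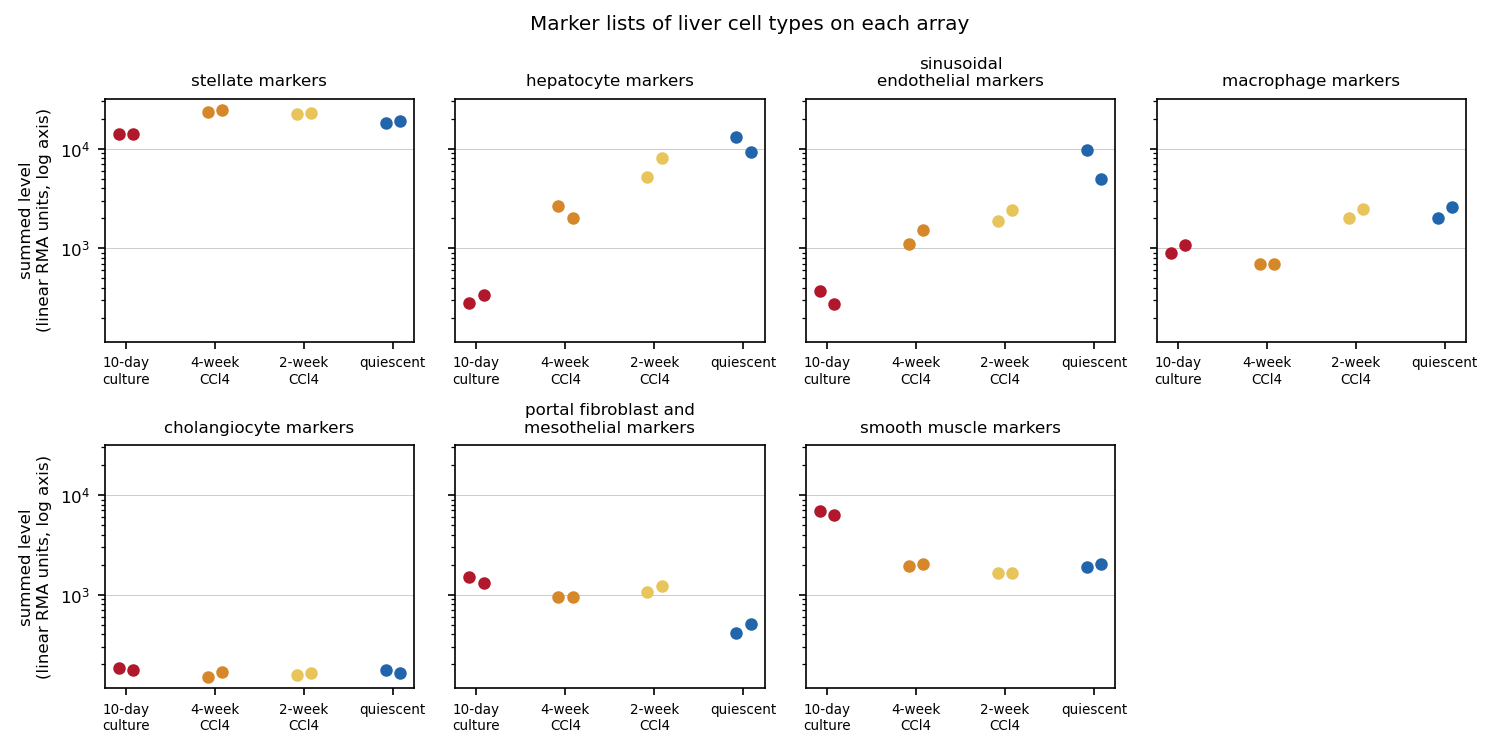
Summed level of each marker list on each array, in linear RMA units on a log axis, with 1 point per array. Hepatocyte and sinusoidal endothelial lists were lowest in culture and highest in quiescent cells, and the cholangiocyte list stayed between 148 and 185 on all 8 arrays.

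The 9 genes did not move as a block. Against quiescent cells, the negative regulators Hhip and Ptch1 were lower and the co-receptor gene Boc was higher in culture and at both CCl4 times. Gli2 was higher after CCl4 at both times and Smo at 4 weeks, whereas Cdon, Gas1 and Gli1 were lower in culture. In culture 6 of the 9 were called, 1 higher and 5 lower, where 23.2% of all genes were called, 12.9% higher and 10.3% lower. The arrays of the groups did not overlap for 8 of the 9, and for 58.2% of all genes. After 4 weeks of CCl4, 5 were called, 3 higher and 2 lower, against 8.71% of all genes (4.04% higher and 4.67% lower), and 7 did not overlap, against 48.7%. After 2 weeks, 4 were called, 2 higher and 2 lower, against 4.77% of all genes (2.34% higher and 2.43% lower), and 6 did not overlap, against 43.5%. The median change of the 9 was -0.50 in culture, 0.32 at 4 weeks and 0.33 at 2 weeks, with medians over all genes of 0.01, 0.00 and 0.00. The 3 comparisons share the quiescent arrays, so they are not independent of each other. In bulk samples like these, fewer cells of a type and less RNA per cell cannot be told apart.

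**Figure D2:**
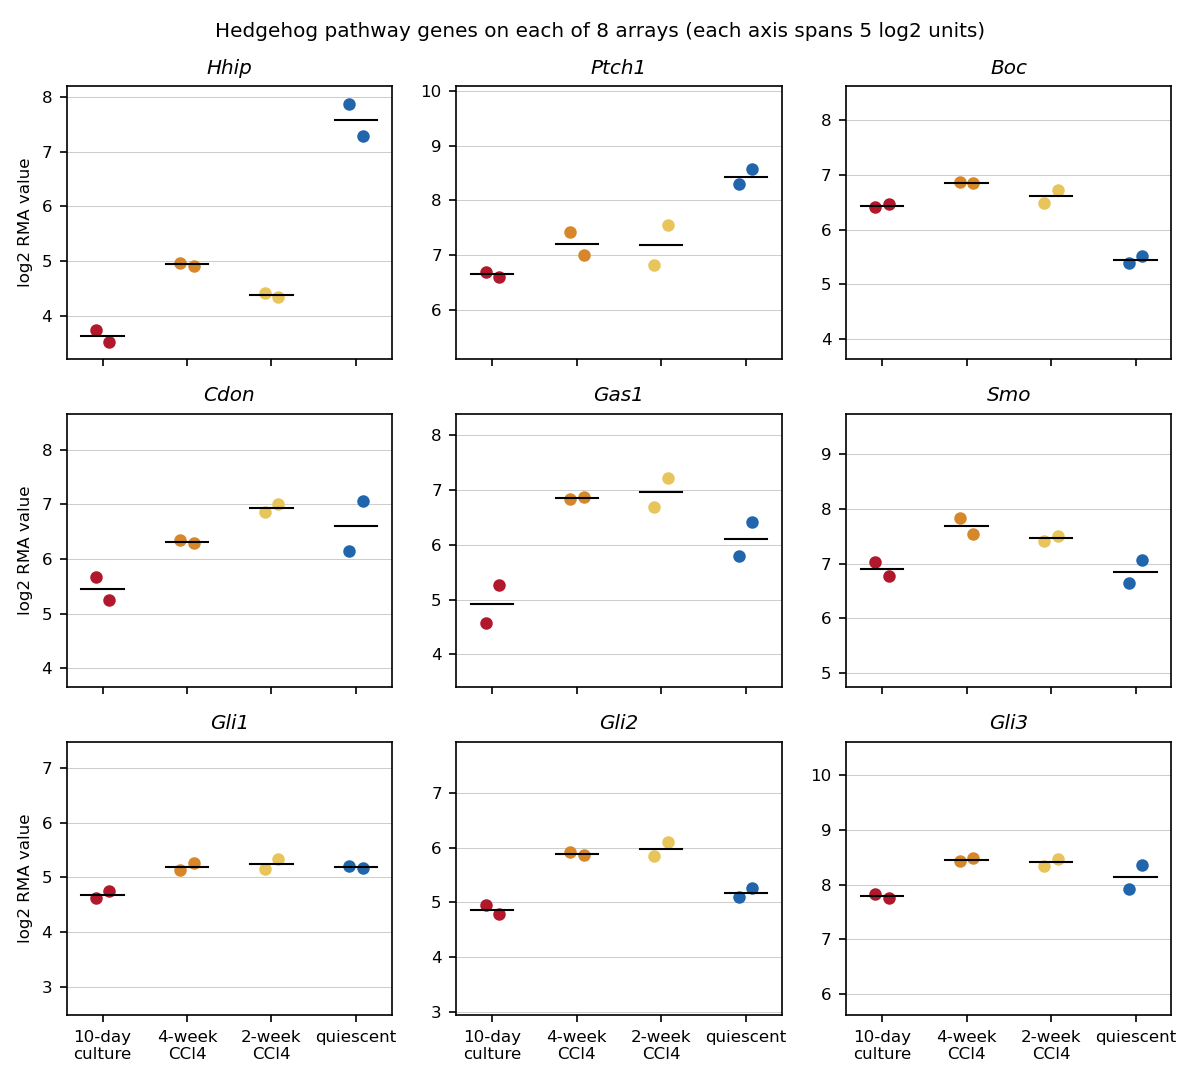
Log2 RMA value of each of the 9 genes on each array (points) with the mean of the 2 arrays of a group (line); each axis spans 5 log2 units. Hhip ran from 3.52 to 7.88, the widest range of the 9, and its quiescent arrays lay above all others.

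Hhip encodes a membrane-anchored protein that binds Hedgehog ligands and keeps them from Patched. It stood at 3.74 and 3.52 log2 units in culture, 4.97 and 4.92 after 4 weeks of CCl4, 4.41 and 4.35 after 2 weeks, and 7.88 and 7.28 in quiescent cells. No array of any other group came near the quiescent pair, and the 4 groups did not overlap each other. Hhip fell 15.4-fold in culture (log2 fold change -3.95 ± 0.20, limma adjusted p = 3.38e-06). The fall was 6.23-fold at 4 weeks (-2.64 ± 0.20, adjusted p = 0.000203). At 2 weeks it was 9.21-fold (-3.20 ± 0.20, adjusted p = 0.000127). These calls held in all 8 fits that left out 1 array, with log2 fold changes between -4.25 and -3.65, -2.94 and -2.34, and -3.50 and -2.90. The cultured and 2-week arrays were below the background guide of 4.69, so the folds for those groups may understate the difference. The order from high to low was quiescent, 4 weeks, 2 weeks, culture. The step between the CCl4 times, 0.56 ± 0.20 higher at 4 weeks, did not pass (adjusted p = 0.482), although the arrays were apart.

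Ptch1, the receptor gene, had a similar order with more spread after CCl4. It stood at 6.69 and 6.61 log2 units in culture, 7.42 and 6.99 after 4 weeks, 6.81 and 7.55 after 2 weeks, and 8.29 and 8.57 in quiescent cells. Every quiescent array was above every other array, while the 4-week and 2-week arrays overlapped. Ptch1 fell 3.44-fold in culture (-1.78 ± 0.25, adjusted p = 0.000962). It fell 2.34-fold at 4 weeks (-1.23 ± 0.25, adjusted p = 0.0189) and 2.38-fold at 2 weeks (-1.25 ± 0.25, adjusted p = 0.0267). The culture call held in all 8 fits without 1 array. At 4 weeks it did not pass when quiescent replicate 2 (adjusted p = 0.0619) or 4-week replicate 1 or 2 (0.0564 and 0.144) was left out. The 2-week call was lost without quiescent replicate 2 (0.0741), 2-week replicate 1 (0.148) or either cultured array (0.0506 each), and in a fit of only these 2 groups (0.0895).

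The falls of Hhip and Ptch1 ran beside lower sinusoidal endothelial and hepatocyte markers in the same groups, and the part of those cells in them was not tested. Between the quiescent arrays, the summed endothelial level was 9743 in replicate 1 and 4900 in replicate 2. The hepatocyte sums were 12901 and 9152 in the same order, and the macrophage sums 1997 and 2563. Hhip was higher in replicate 1 and Ptch1 in replicate 2. Without quiescent replicate 1, Hhip differed in culture by -3.65, and by -2.34 at 4 weeks and -2.90 at 2 weeks. Without it, Ptch1 differed by -1.92, -1.37 and -1.39. Endothelial and hepatocyte sums in replicate 2 were still above those of every array of the other groups. These fits therefore cannot show the part of those cells.

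Boc, an immunoglobulin and fibronectin domain co-receptor, was the member that was higher in all 3 activated groups. It stood at 6.41 and 6.47 log2 units in culture, 6.87 and 6.85 after 4 weeks, 6.49 and 6.73 after 2 weeks, and 5.39 and 5.53 in quiescent cells. Both quiescent arrays lay below the other 6. Boc rose 1.98-fold in culture (0.99 ± 0.14, adjusted p = 0.0011). It rose 2.65-fold at 4 weeks (1.40 ± 0.14, adjusted p = 0.000733) and 2.22-fold at 2 weeks (1.15 ± 0.14, adjusted p = 0.00359). All 3 calls held in each of the 8 fits without 1 array. The 4-week arrays were above the 2-week arrays, but the step of 0.25 ± 0.14 did not pass (adjusted p = 0.743). The summed level of portal fibroblast and mesothelial markers was also lowest in quiescent cells, though their median was lowest in culture. The sum over 7 of 8 listed genes was 1298 to 1520 in culture, 939 to 944 after 4 weeks, 1056 to 1235 after 2 weeks and 411 to 509 in quiescent cells. Of the 7, 1 rose and 2 fell in culture, and 2 rose at 4 weeks and 3 at 2 weeks. Fbln2, which rose in all 3 (4.45 in culture, 1.70 at 4 weeks and 1.89 at 2 weeks), made up most of the sum in culture. Wt1, a mesothelial transcription factor gene, fell in culture (-1.31) and rose at 4 weeks (1.54) and 2 weeks (1.78). Eln, the elastin gene, fell in culture (-1.38) and rose at 2 weeks (1.21). The other mesothelial markers, Msln, Upk3b and Gpm6a, stayed between 4.18 and 5.55 log2 units on all 8 arrays, and Thy1 did not pass. Smooth muscle markers, 6 genes, also had their lowest median in quiescent cells, 6.41 to 6.85 log2 units. It was 9.03 to 9.19 in culture, 6.95 to 7.58 after 4 weeks and 7.21 to 7.22 after 2 weeks. Their sum was lowest after 2 weeks, 1652 to 1661, against 1888 to 2028 in quiescent cells. Acta2, Col1a1 and Timp1 of the stellate list were called higher in all 3 activated groups too. What part any of these had in the Boc result was not tested.

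Cdon, the relative of Boc with the same kind of role, took another course. It stood at 5.66 and 5.24 log2 units in culture, 6.35 and 6.29 after 4 weeks, 6.87 and 7.0 after 2 weeks, and 6.14 and 7.07 in quiescent cells. The cultured arrays were the lowest, and the quiescent pair was spread so widely that it enclosed all 4 CCl4 arrays. Cdon fell 2.22-fold in culture (-1.15 ± 0.28, adjusted p = 0.0155), a call lost without culture replicate 2 (-0.94, adjusted p = 0.113) and in a fit of only these 2 groups (0.0705). The culture change was -0.69 without quiescent replicate 2 and -1.62 without quiescent replicate 1, and both passed. After CCl4 it was -0.29 ± 0.28 at 4 weeks (adjusted p = 0.671) and 0.33 ± 0.28 at 2 weeks (adjusted p = 0.648), and neither passed. The signs of both turned when 1 quiescent array was left out.

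Gas1 encodes a lipid-anchored co-receptor, named for its rise in growth-arrested fibroblasts. It stood at 4.56 and 5.26 log2 units in culture, 6.85 and 6.88 after 4 weeks, 6.69 and 7.23 after 2 weeks, and 5.79 and 6.42 in quiescent cells. The cultured arrays lay below the quiescent ones and all 4 CCl4 arrays above them. Culture replicate 1 was below the background guide. Gas1 fell 2.29-fold in culture (-1.19 ± 0.29, adjusted p = 0.0156). It did not pass when quiescent replicate 2 (adjusted p = 0.0792) or culture replicate 1 (0.111) was left out, nor in a fit of only these 2 groups (0.0516). The differences after CCl4 were 0.76 ± 0.29 at 4 weeks (adjusted p = 0.168) and 0.86 ± 0.29 at 2 weeks (adjusted p = 0.156), and did not pass. Their 95% intervals ran from 0.11 to 1.41 and from 0.20 to 1.51. Without quiescent replicate 1 the differences were 0.45 at 4 weeks (adjusted p = 0.542) and 0.54 at 2 weeks (adjusted p = 0.479).

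Smo encodes the transducer that Patched restrains. It stood at 7.04 and 6.77 log2 units in culture, 7.84 and 7.54 after 4 weeks, 7.41 and 7.51 after 2 weeks, and 6.64 and 7.07 in quiescent cells. The CCl4 arrays were the 4 highest, while cultured and quiescent arrays overlapped. Smo rose 1.78-fold at 4 weeks (0.84 ± 0.19, adjusted p = 0.0283). It did not pass when quiescent replicate 1 (adjusted p = 0.126) or 4-week replicate 1 or 2 (0.201 and 0.0722) was left out, nor in a fit of only these 2 groups (0.0777). At 2 weeks the difference was 0.61 ± 0.19 (adjusted p = 0.124). In culture it was 0.05 ± 0.19 (adjusted p = 0.905), with a 95% interval of -0.38 to 0.48.

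The GLI genes, which encode the zinc finger factors at the end of the pathway, differed among themselves. Gli2, the main activator in mouse development, stood at 4.94 and 4.78 log2 units in culture, 5.92 and 5.87 after 4 weeks, 5.85 and 6.10 after 2 weeks, and 5.09 and 5.27 in quiescent cells. The 4 CCl4 arrays lay above all others. Gli2 rose 1.64-fold at 4 weeks (0.71 ± 0.15, adjusted p = 0.0226) and 1.73-fold at 2 weeks (0.79 ± 0.15, adjusted p = 0.0215). At 4 weeks it did not pass when quiescent replicate 1 (adjusted p = 0.0969) or 4-week replicate 1 or 2 (0.141 and 0.11) was left out. The 2-week call was lost without quiescent replicate 1 (0.0867) or 2-week replicate 1 or 2 (0.0631 and 0.109). In fits of only the groups compared they stood at 0.0501 and 0.0936. In culture Gli2 was -0.32 ± 0.15 and did not pass (adjusted p = 0.185).

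Gli1, the GLI gene that is itself a target of the pathway, was flat in the unseeded cells. It stood at 4.62 and 4.74 log2 units in culture, 5.12 and 5.27 after 4 weeks, 5.15 and 5.34 after 2 weeks, and 5.20 and 5.17 in quiescent cells. The cultured arrays were the lowest, close to the background guide, and the 6 others overlapped. Those 6, from 5.12 to 5.34, were not far above the guide of 4.69 either, so a small change could be missed. Against quiescent cells Gli1 differed by 0.01 ± 0.14 at 4 weeks (95% interval -0.31 to 0.33, adjusted p = 0.986) and by 0.06 ± 0.14 at 2 weeks (-0.26 to 0.38, adjusted p = 0.904). It fell 1.42-fold in culture (-0.50 ± 0.14, adjusted p = 0.0299). That call was lost without any 1 of the 4 arrays compared (quiescent replicates 1 and 2, 0.0997 and 0.0737, and culture replicates 1 and 2, 0.149 and 0.0771), and in a fit of only these 2 groups (0.0609).

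Gli3, the main repressor among the GLI factors, passed in none of the comparisons with quiescent cells. It stood at 7.82 and 7.75 log2 units in culture, 8.43 and 8.48 after 4 weeks, 8.34 and 8.47 after 2 weeks, and 7.92 and 8.36 in quiescent cells. The cultured arrays were below all others. The differences were -0.35 ± 0.17 in culture (adjusted p = 0.182), 0.32 ± 0.17 at 4 weeks (0.344) and 0.27 ± 0.17 at 2 weeks (0.497). The culture difference was -0.57 without quiescent replicate 1, which passed (adjusted p = 0.0463), and -0.14 without quiescent replicate 2 (adjusted p = 0.681). Without quiescent replicate 1, the differences after CCl4 were 0.10 at 4 weeks and 0.051 at 2 weeks.

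**Figure D3:**
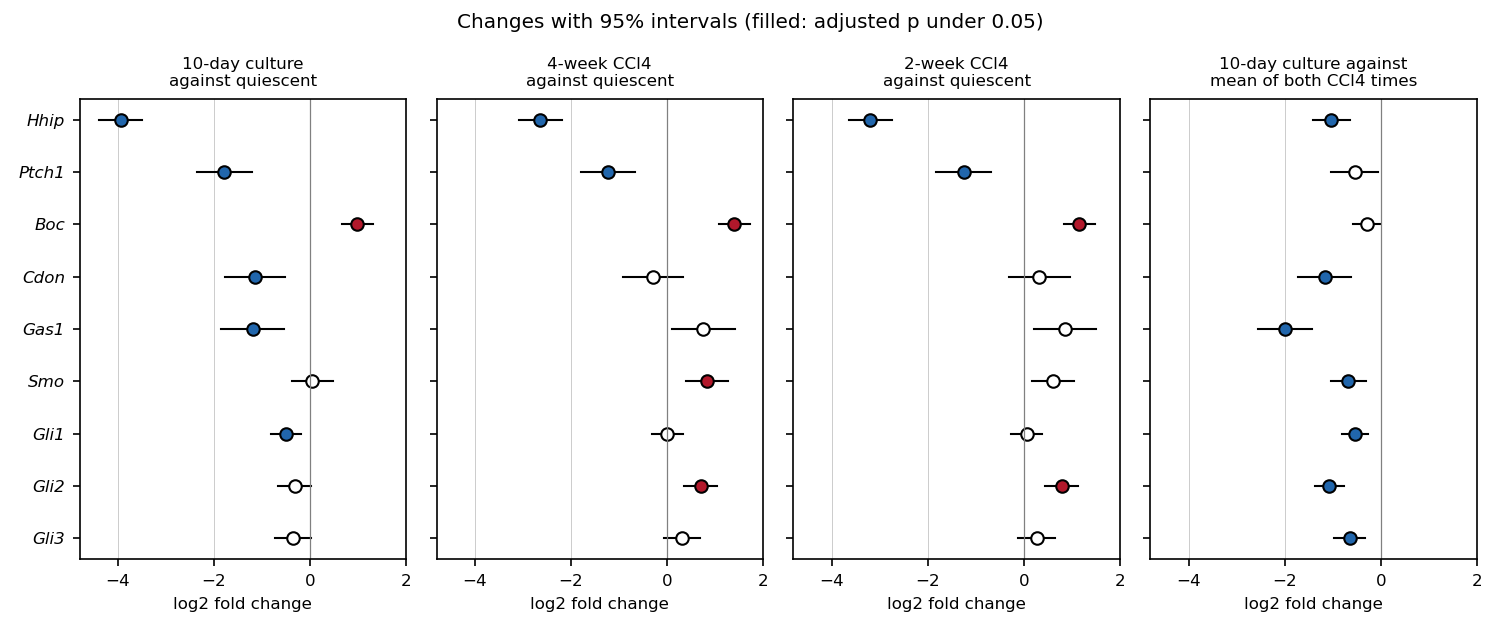
Log2 fold change of each gene (points) with its 95% interval (bars) in 4 comparisons; filled points passed the adjusted p threshold of 0.05, blue for lower and red for higher. Hhip and Ptch1 lie left of 0 and Boc right of 0 in each comparison with quiescent cells, and all 9 genes lie left of 0 for culture against CCl4.

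Culture and CCl4 were set against each other directly, with the 2 cultured arrays against the mean of both CCl4 times. All 9 genes had lower values in culture, on every cultured array against every CCl4 array, a separation in either direction that 39.9% of all genes had. Of the 9, 7 were called lower and 0 higher, where 21.3% of all genes were called, 12.6% higher and 8.72% lower. The largest difference was that of Gas1 (-2.00 ± 0.25, adjusted p = 0.000548), followed by Cdon (-1.17 ± 0.24, adjusted p = 0.00775), Gli2 (-1.07 ± 0.13, adjusted p = 0.000508) and Hhip (-1.03 ± 0.17, adjusted p = 0.00278). Smo (-0.67 ± 0.16), Gli3 (-0.65 ± 0.14) and Gli1 (-0.54 ± 0.12) also passed, with adjusted p = 0.0181, 0.0121 and 0.0124. Ptch1 (-0.55 ± 0.22, adjusted p = 0.12) and Boc (-0.29 ± 0.12, adjusted p = 0.144) did not. Both cultured and both 2-week arrays of Hhip, and 1 cultured array each of Gas1 and Gli1, were below the background guide, so the sizes and order of these differences are uncertain. Gas1, Gli2 and Hhip kept their calls in all 8 fits without 1 array. The summed level of the 11 stellate markers was also lower in culture, 13859 to 14033 against 23478 to 24389 after 4 weeks and 22269 to 22697 after 2 weeks, and 17933 to 18775 in quiescent cells. That list was mixed, with 1 gene called higher in culture than after CCl4 (Acta2, 0.76) and 7 lower, among them Rgs5 (-5.07). Des differed by 0.03 and Timp1 by 0.02. The part of the summed level in these differences was not tested.

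The other 4 calls of culture against CCl4 each rested on single arrays. Without culture replicate 2, Cdon (adjusted p = 0.0905), Smo (0.166), Gli1 (0.0535) and Gli3 (0.095) lost theirs, which left 3 of the 9. Without culture replicate 1, Gli1 (0.104) and Gli3 (0.0607) lost theirs. Smo also lost its call without 2-week replicate 2 (0.0536) or 4-week replicate 1 (0.0608). Ptch1 ran from -0.73 without 2-week replicate 1, the 1 fit of 8 that passed (adjusted p = 0.0249), to -0.36 without 2-week replicate 2 (adjusted p = 0.227).

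Between 4 and 2 weeks of CCl4 limma called 0 of the 9 genes, 1 at an unadjusted p under 0.05 (Hhip), where 0.0857% of all genes were called, 0.0271% higher and 0.0586% lower. The arrays of 4 of the 9 did not overlap, against 39.0% of all genes. The differences ran from -0.61 (Cdon) to 0.56 (Hhip). Cdon was lower on both 4-week arrays (6.35 and 6.29) than on the 2-week arrays (6.87 and 7.0), with -0.61 ± 0.28 and an adjusted p of 0.626. The 95% interval for Ptch1 ran from -0.54 to 0.59 and for Gli2 from -0.43 to 0.26.

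Beyond the 9 genes, 51 of 58 other genes of the pathway in 4 lists were measured with a single-symbol probe set. In culture 8 of them rose and 8 fell, where 23.2% of all genes were called. After CCl4 1 passed at 4 weeks, where 8.71% of all genes did, and 2 at 2 weeks, where 4.77% did. The cholangiocyte markers, of a cell type known to produce Hedgehog ligands in the injured liver, summed to 175 to 185 in culture, 148 to 167 after 4 weeks, 156 to 164 after 2 weeks and 165 to 174 in quiescent cells. Within that sum, Krt19 rose (1.04, limma adjusted p = 0.00276) and Sox9 fell (-0.58, adjusted p = 0.0373) in culture. Epcam and Cftr were below the background guide on all 8 arrays. The sum therefore cannot show whether these cells changed.

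Among 9 genes for making and releasing the ligand, 2 rose and 2 fell in culture, 1 rose at each CCl4 time, and 0 fell after CCl4. Over all genes, 12.9% rose and 10.3% fell in culture, 4.04% rose at 4 weeks and 2.34% rose at 2 weeks. Disp1, the membrane pump that lets lipid-modified ligand leave the cell, stood at 8.45 and 8.29 log2 units in culture, 5.28 and 5.87 after 4 weeks, 5.42 and 5.70 after 2 weeks, and 5.36 and 5.70 in quiescent cells. Only the cultured arrays stood apart from the others, and Disp1 rose 7.16-fold there (2.84 ± 0.22, adjusted p = 3.42e-05). Cultured cells had more of it than CCl4 cells, too (2.80 ± 0.19, adjusted p = 1.68e-05).

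Scube1, of a family of secreted proteins that help release the ligand, split the other way. It stood at 5.62 and 5.37 log2 units in culture, 9.59 and 9.26 after 4 weeks, 8.98 and 9.60 after 2 weeks, and 7.06 and 6.87 in quiescent cells. Culture, CCl4 and quiescent arrays formed separate ranges. Scube1 rose 5.49-fold at 4 weeks (2.46 ± 0.22, adjusted p = 0.000441) and 4.99-fold at 2 weeks (2.32 ± 0.22, adjusted p = 0.000875), and fell 2.78-fold in culture (-1.47 ± 0.22, adjusted p = 0.00136). Between culture and CCl4 the difference was -3.86 ± 0.19 (adjusted p = 3.05e-06). The calls of Disp1 and Scube1 held in all 8 fits without 1 array.

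The acyltransferase gene Hhat, whose enzyme attaches palmitate to the ligand, rose by 0.49 ± 0.14 in culture (limma adjusted p = 0.0301). Scube3 fell there by 0.47 on the log2 scale (SE 0.14, adjusted p = 0.041). Hhat did not pass with an intensity trend in the prior variance (adjusted p = 0.0558) or in a fit of only these 2 groups (0.0606). Hhat lost its call without any 1 of the 4 arrays compared (quiescent replicates 1 and 2, adjusted p = 0.0952 and 0.0796, and culture replicates 1 and 2, 0.11 and 0.121). Scube3 lost its call without any 1 of the 8 arrays (0.0549 to 0.226) and under 7 of the other 9 alternatives. It has 2 probe sets, and their mean differed by -0.16 (adjusted p = 0.565). The ligand genes themselves did not pass in any of the 5 comparisons and are named after their values were seen. Shh was below the background guide on 8 of 8 arrays (3.61 to 4.10), and Dhh was above it on 3 (4.21 to 5.30 over all 8). Ihh was above it on all 8, between 5.72 and 6.03, with changes of 0.03 ± 0.16 in culture, 0.03 ± 0.16 after 4 weeks and -0.04 ± 0.16 after 2 weeks.

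Of 17 measured genes of reception and signal transduction, 1 rose and 1 fell in culture, and 0 passed at either CCl4 time (limma, 0 at 4 weeks and 3 at 2 weeks at an unadjusted p under 0.05). The shares of all genes called were 23.2% in culture, 8.71% at 4 weeks and 4.77% at 2 weeks. Gpr161, a ciliary receptor that restrains the pathway through protein kinase A, rose by 0.59 ± 0.15 (adjusted p = 0.0207). Its quiescent arrays (4.14 and 4.18) and culture replicate 1 (4.66) were below the background guide, so the size of that difference is uncertain. Csnk1a1, a casein kinase 1 gene whose product phosphorylates GLI proteins, fell by 0.55 on the log2 scale (SE 0.14, limma adjusted p = 0.0222). In a fit of only the cultured and quiescent arrays, Csnk1a1 did not pass (0.0515). Gpr161 lost its call without quiescent replicate 1 or 2 (0.0764 and 0.0531) or culture replicate 2 (0.132), and Csnk1a1 without any 1 of the 4 arrays compared (quiescent 0.0585 and 0.0782, culture 0.0511 and 0.137). Sufu, the cytoplasmic inhibitor of GLI proteins, and Kif7, a ciliary kinesin of the pathway, were in this list and were not called.

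Of 13 measured primary cilium genes, 2 rose and 2 fell in culture, and 0 passed at either CCl4 time (limma, 1 at 4 weeks and 0 at 2 weeks at an unadjusted p under 0.05). A count of 4 of 13 is near the 23.2% of all genes called in culture. A count of 0 of 13 is also near the 8.71% called at 4 weeks and the 4.77% called at 2 weeks. The subunits of the outward motor, Kif3b (0.95 ± 0.16, adjusted p = 0.0026) and Kif3a (0.74 ± 0.14, adjusted p = 0.00445), rose. Ift172, an intraflagellar transport gene (-0.87 ± 0.15, adjusted p = 0.00325), and Dync2h1, the heavy chain of the inward motor (-0.70 ± 0.16, adjusted p = 0.014), fell. Dync2h1, below the background guide on both cultured arrays, lost its call without quiescent replicate 1 (0.0598) or culture replicate 2 (0.0929).

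Of 12 other measured genes that are reported GLI targets, 3 rose and 3 fell in culture, where 12.9% of all genes rose and 10.3% fell. The cyclin genes Ccnd2 (1.63 ± 0.24, adjusted p = 0.00114) and Ccnd1 (1.25 ± 0.24, adjusted p = 0.0052) and the mitotic regulator Foxm1 (1.21 ± 0.17, adjusted p = 0.00102) rose. Each of these 3 is also set by growth signals outside the pathway. Snai1, a repressor of epithelial genes, fell (-1.04 ± 0.22, adjusted p = 0.008), a call lost without culture replicate 1 (0.061). The anti-apoptotic gene Bcl2 (-0.68 ± 0.14, adjusted p = 0.008) and Sfrp1, a secreted Wnt antagonist (-1.09 ± 0.32, adjusted p = 0.0391), were the other falls. Neither of these was refitted without 1 array or under the other alternatives. Bcl2 has 2 probe sets, of which the brighter was used. Sfrp1 was below the background guide on culture replicate 2. At 4 weeks 0 of the 12 passed (limma, 4 at an unadjusted p under 0.05), where 8.71% of all genes did. At 2 weeks 1 passed (limma, 8 at an unadjusted p under 0.05), where 4.77% of all genes did. The share of all genes under the unadjusted threshold was not computed. The 1 gene was Ccnd1, which fell (-1.14 ± 0.24, limma adjusted p = 0.0317), but not in a fit of only these 2 groups (0.127). The Ccnd1 call was also lost without either cultured array, either 2-week array (-1.15 without replicate 1 and -1.13 without replicate 2) or either 4-week array.

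**Figure D4:**
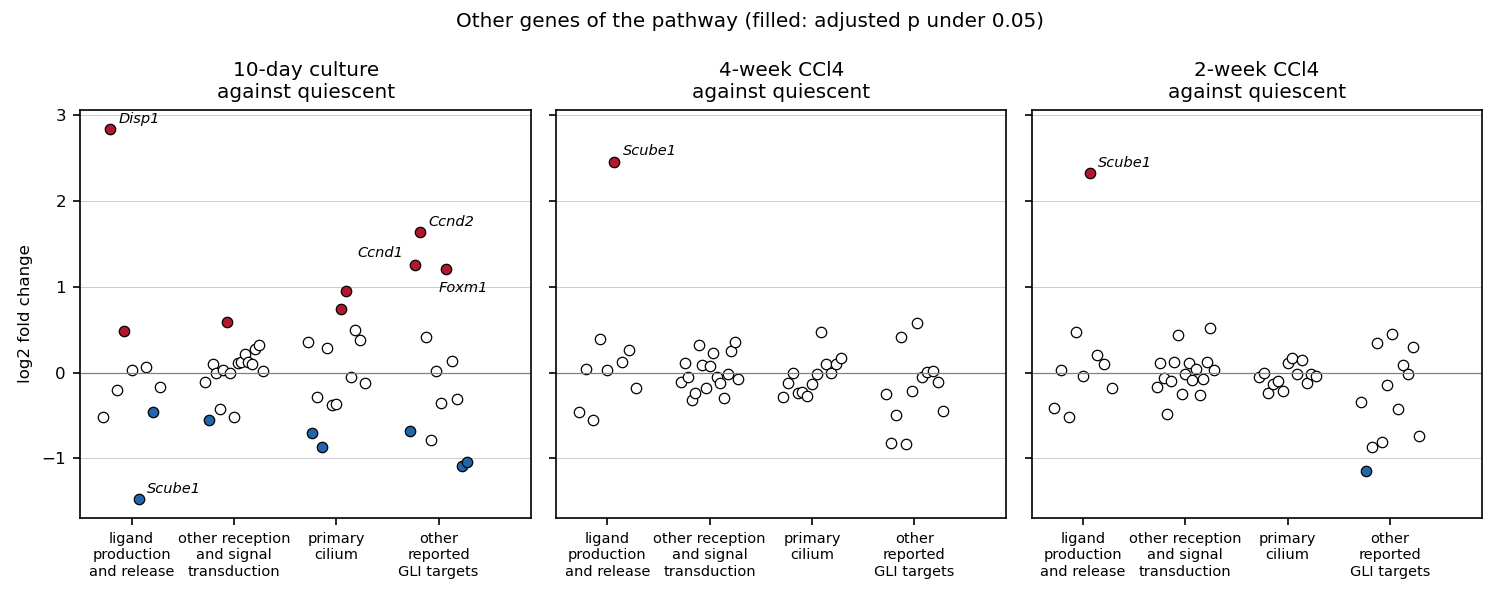
Log2 fold change of each of 51 other pathway genes, in 4 lists, for 3 comparisons with quiescent cells; filled points passed the adjusted p threshold of 0.05, red for higher and blue for lower. Disp1 in culture (2.84) and Scube1 after CCl4 (2.46 at 4 weeks and 2.32 at 2 weeks) stand farthest from 0.

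The genes whose patterns were most like those of the members were found by Pearson correlation over the 8 arrays. The search covered 3500 genes whose group means spanned at least 1 log2 unit, for the 6 members that did so too. The arrays form 4 groups of 2 and share their normalization, so each correlation is a description of few independent points. Hhip ran closest to Jade2 (r = 0.99), Nt5e (0.98) and Colgalt2 (0.98). Ptch1 ran closest to Mapk8ip1 (0.98), Aox3 (0.98) and Rxra (0.98). For Boc they were Col4a2 (0.996), Col4a1 (0.99) and Myo9b (0.98), the first pair being the genes of the main basement membrane collagen. Col4a2 averaged 8.54 log2 units in culture, 9.02 after 4 weeks, 8.69 after 2 weeks and 7.08 in quiescent cells. Colgalt2 and Aox3 averaged below the background guide in every group but the quiescent one (Colgalt2 3.51 to 3.85, Aox3 3.81 to 4.26).

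For the co-receptors, Cdon ran closest to Ccdc3 (r = 0.98), Unc93b1 (0.97) and Clec11a (0.97), and Gas1 to Rab27b (0.98), Tmem178 (0.98) and Col6a3 (0.98). Gli2 ran closest to Gpc3 (0.997), Lgi2 (0.99) and Smtnl2 (0.99). Lgi2 averaged 3.69 log2 units in culture, below the background guide. Gpc3 encodes glypican 3, a cell surface proteoglycan reported to bind Hedgehog ligand. It averaged 4.42 log2 units in culture, below the background guide, 7.01 after 4 weeks, 7.11 after 2 weeks and 5.14 in quiescent cells. A link between Gpc3 and Gli2 was not tested. As many as 51 genes reached a correlation over 0.95 with Gli2, 41 with Hhip, 36 with Ptch1, 27 with Boc, 23 with Gas1 and 8 with Cdon.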

How the data were processed

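RNA from 8 samples of mouse stellate cells was measured on Affymetrix arrays. Per the labels' protocols it was amplified (Pico Ovation WTA V2) and carried a biotin label. The values are the authors' deposited log2 expression. The submitters' processing notes name RMA and Affymetrix Expression Console, and their versions are not given in the sources used here. Because RMA gives every array the same distribution, values are relative to the rest of the array. Array medians ran from 4.63 to 4.72 log2 units, and the values were used as deposited.

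Of 41345 probe sets, 23521 had 1 gene symbol in the platform table, 1814 had several and 16010 were not named here. The brightest single-symbol probe set was kept, which left 22180 genes. Through gene IDs, 0 symbols changed against RefSeq and 193 IDs had no row. Groups came from the sample titles. The members, gene lists, rule for named genes (all members, up to 4 called genes a list and comparison, the 3 most correlated genes a member) and background guide were chosen with earlier results of these data known. Of the pathway lists, Shh, Ihh, Dhh, Sufu, Kif7, Bcl2 and Sfrp1 were named outside that rule.

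Tests used limma 3.58.1 in R 4.3.3 (lmFit and eBayes, neither trend nor robust), 1 fit of 4 groups with 4 residual and 4.75 prior degrees of freedom, two-sided, adjusted over 22180 genes in each of 5 comparisons. The script was tested on simulated data. With 2 arrays a group, exact permutation has a smallest p of 0.333 and was not used. The number of arrays limits the precision. Alternatives were an intensity trend, a robust prior, renormalization, median centring, a filter on dim genes, averaged probe sets, array weights, only the groups compared, the replicate number as a block and each array left out. Figures were drawn with matplotlib 3.10.9 in Python 3.11.15.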

Additional observations from a re-analysis of the deposited data

Results flagged for a closer look

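For 7 of the 9 genes the change against quiescent cells differed between culture and the mean of both CCl4 times, by limma's test of culture against CCl4, which the report gives. Over all genes 21.3% were called in that test, 12.6% higher and 8.72% lower. The quiescent level cancels out of the difference, so this is the same result and not a further one. In log2 units, the change of Gas1 was -1.19 in culture and 0.81 after CCl4 (difference -2.00), and that of Gli2 was -0.32 and 0.75 (difference -1.07). For Gli3 the changes were -0.35 and 0.29 (difference -0.65), for Gli1 -0.50 and 0.04 (difference -0.54), for Cdon -1.15 and 0.02 (difference -1.17) and for Smo 0.05 and 0.72 (difference -0.67). Hhip was lower in both (-3.95 and -2.92, difference -1.03). In culture, the changes of Gli2, Gli3 and Smo against quiescent cells were not called. After CCl4, those of Gas1, Gli3, Gli1 and Cdon were called at neither time, and that of Smo only at 4 weeks. The calls of Cdon, Smo, Gli1 and Gli3 between culture and CCl4 each rested on single arrays, as given above. The cultured arrays also had the lowest hepatocyte and sinusoidal endothelial sums and differ from the CCl4 arrays in plating, possibly also in exposure to valproic acid. These cannot be told apart. Groups of 2 arrays were too small for a test of outlying samples.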

How the results depend on the processing

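With 1 array left out, the number of the 9 genes called ran from 4 to 6 in culture (6 with all arrays), from 2 to 5 at 4 weeks (5), from 2 to 4 at 2 weeks (4) and from 3 to 8 for culture against CCl4 (7), and was 0 in all 8 fits between the CCl4 times. In fits of only the groups compared it was 3 in culture, 3 at 4 weeks and 2 at 2 weeks. The other 8 alternatives gave counts within 1.5 times those reported. Calls over all genes ran from 3505 to 5224 in culture, 652 to 2113 at 4 weeks, 260 to 1430 at 2 weeks, 0 to 85 between the CCl4 times and 2846 to 5225 for culture against CCl4; fewer arrays were tested in the lowest of these. With the replicate number as a block, 6, 6, 5, 0 and 7 of the 9 were called in culture, at 4 weeks, at 2 weeks, between the CCl4 times and for culture against CCl4, and Gas1 passed at 4 weeks (adjusted p = 0.0499) and 2 weeks (0.0497). Nothing in the labels says that the numbers pair the arrays, and same-numbered arrays deviated together with correlations of only -0.04 to 0.07.

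Signs turned only for differences that had not passed. With 1 array left out, Smo in culture ran from -0.16 (without quiescent replicate 1; -0.084 without culture replicate 1) to 0.26. Cdon ran from -0.75 to 0.18 (without quiescent replicate 2) at 4 weeks and from -0.14 (without quiescent replicate 1) to 0.79 at 2 weeks. Gli1 ran from -0.062 (without 4-week replicate 2; -0.0062 without quiescent replicate 2) to 0.081 at 4 weeks, where median centring gave -0.039, and from -0.032 (without 2-week replicate 2) to 0.15 at 2 weeks. Between the CCl4 times, Gli1 ran from -0.14 to 0.042 (without 2-week replicate 2; 0.020 without 4-week replicate 1), with 0.0034 after renormalization. There Ptch1 ran from -0.35 (without 2-week replicate 1; -0.19 without 4-week replicate 1) to 0.40, Gas1 from -0.37 to 0.17, Gli2 from -0.21 to 0.044 and Gli3 from -0.016 to 0.12. Gas1 and Gli2 turned without 2-week replicate 2 and Gli3 without 2-week replicate 1. The cause was not tested. Signal near background limits Hhip in culture and at 2 weeks, and Gas1 and Gli1 in culture. Gli2 in culture (4.94 and 4.78) and Hhip at 4 weeks (4.97 and 4.92) were above the background guide of 4.69 but close to it.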
